A study of Mus musculus with 8 samples.

Results

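The genes described here are 10 receptors and regulators of early blood progenitors: the receptors and surface proteins Kit, Flt3, Cd34 and Ly6a, and the transcription regulators Runx1, Lmo2, Mef2c, Myb, Sox4 and Gfi1. They were chosen by gene symbol: every probe set that the platform annotation pairs with 1 of these symbols was included. That gave 28 probe sets of 9 genes, among 45037 probe sets besides manufacturer controls. Ly6a, which encodes the stem cell antigen Sca-1, was paired with no probe set by that annotation and is not analysed here. Of the 28 probe sets, 25 passed the filter on low values, and 3 (2 of Sox4 and 1 of Runx1) sat at the lowest value of the table, 2.08, on all 8 arrays.

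The cells were Fraction B pro-B cells of mouse bone marrow, an early B-cell stage sorted as B220+ CD43+ HSA+ BP-1-. The menin-deficient group was 4 Rag1-cre;MenF/F mice, in which Cre named for the lymphoid recombinase gene Rag1 is meant to delete floxed Men1. The control group was 4 MenF/F mice, which carry the same floxed Men1 without Cre and are titled wild type in the labels. Since only the menin-deficient mice carried Cre, what Cre itself does cannot be told apart from the loss of menin. The mice were 2 to 3 weeks old per the sample labels, and 3 weeks old per the design text. Each mouse, a biological replicate per the labels, gave 1 expression array, and the number of arrays limits the precision. By Xist and Eif2s3y, 2 menin-deficient mice and 1 control mouse were male.

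The labels were checked against Men1 and the sort. Men1 had log2 values of 7.85, 8.24, 8.50 and 8.03 in menin-deficient mice 1 to 4, against 9.59, 9.19, 9.58 and 9.81 in control mice 1 to 4. All 4 menin-deficient values lay below all 4 control values, and Men1 was 2.62-fold lower (log2 difference -1.39, SE 0.18, limma adjusted p = 0.00391). The labels do not place its probe sets inside or outside the deleted part. Of 11 pro-B cell markers (Cd79a, Ebf1 and others), Dntt, Vpreb3, Igll1 and Blnk were called higher and Rag1 lower (1 and 1 once every array was set to the same median tested gene), and none was near the lowest value. Their mean log2 value per array was 14.04 to 14.16 in menin-deficient mice and 13.85 to 14.03 in control mice. Over all genes tested, 16.2% were called higher and 5.17% lower. Of the 4 genes of the sort markers none passed on its brightest probe set, and 2 passed when all probe sets of a gene were averaged. A second probe set of Ptprc, which encodes the B220 and CD45 protein, was lower (-0.72, limma adjusted p = 0.0400 over all probe sets). Enpep, which encodes BP-1, the antigen the sort selects against, was nevertheless bright, with a mean log2 value of 11.7 in menin-deficient mice and 11.4 in control mice.

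Blood stem and progenitor cells read cytokine signals through the receptor tyrosine kinases KIT and FLT3, and carry CD34 and Sca-1 on their surface. RUNX1, the adaptor LMO2, MYB, SOX4, MEF2C and GFI1 act in the nucleus of such cells, where they help set the choice between stem cell renewal and the lymphoid or myeloid lineages. Several of them stay in use in early B cells: MEF2C and RUNX1 are known to support the early B-cell programme, MYB and SOX4 the survival of pro-B cells, and FLT3 is normally lost as cells commit to the B lineage. The Men1 product, menin, works on chromatin as a partner of the histone methyltransferase MLL.

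Mef2c and Runx1 are each transcribed from several starts, and several probe sets of each are described below. The 250 bases before each of their RefSeq starts are therefore shown (assembly GRCm38.p6, read in the direction of the gene). Capitals mark CpG, a C followed by a G on the same strand, the site at which mammalian DNA is methylated. CpG is crowded in CpG islands, where MLL complexes are known to bind. The Mef2c windows lie on the plus strand at chr13:83503784-83504033, chr13:83523406-83523655 and chr13:83573357-83573606. The Runx1 windows lie on the minus strand, the distal one at chr16:92826075-92826324 and the proximal one at chr16:92697330-92697579.
Mef2c start 1: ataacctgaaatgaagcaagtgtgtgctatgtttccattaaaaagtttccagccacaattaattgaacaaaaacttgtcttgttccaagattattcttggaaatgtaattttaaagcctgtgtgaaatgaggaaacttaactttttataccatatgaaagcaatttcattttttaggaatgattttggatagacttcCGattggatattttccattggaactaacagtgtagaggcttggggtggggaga
Mef2c start 2: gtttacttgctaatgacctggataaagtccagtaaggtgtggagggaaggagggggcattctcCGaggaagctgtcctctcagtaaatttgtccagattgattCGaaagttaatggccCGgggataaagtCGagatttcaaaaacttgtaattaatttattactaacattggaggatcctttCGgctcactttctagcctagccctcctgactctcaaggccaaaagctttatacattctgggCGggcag
Mef2c start 3: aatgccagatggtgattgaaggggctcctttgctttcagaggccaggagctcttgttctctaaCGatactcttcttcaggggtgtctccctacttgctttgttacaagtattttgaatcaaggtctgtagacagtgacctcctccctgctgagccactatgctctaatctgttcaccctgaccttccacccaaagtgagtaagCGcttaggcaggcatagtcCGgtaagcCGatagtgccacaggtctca
Runx1 distal start: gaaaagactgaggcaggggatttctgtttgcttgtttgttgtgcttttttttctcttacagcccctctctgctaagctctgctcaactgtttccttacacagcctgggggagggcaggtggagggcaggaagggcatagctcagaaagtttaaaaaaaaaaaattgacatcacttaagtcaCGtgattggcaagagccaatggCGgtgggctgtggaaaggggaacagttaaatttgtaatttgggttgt
Runx1 proximal start: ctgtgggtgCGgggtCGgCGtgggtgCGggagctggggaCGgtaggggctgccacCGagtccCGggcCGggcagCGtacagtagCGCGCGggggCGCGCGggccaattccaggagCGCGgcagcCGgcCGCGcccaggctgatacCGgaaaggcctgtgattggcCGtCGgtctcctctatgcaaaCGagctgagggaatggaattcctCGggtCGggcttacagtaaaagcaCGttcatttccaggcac
The Mef2c windows hold 1, 6 and 4 CpG, near or below the median of 6 over all 32851 windows of that length. The distal Runx1 window holds 2 and the proximal one 27. Windows with 20 or more CpG make up 17.9% of all windows and 2 of the 13 windows of these genes, the proximal Runx1 window and that of Myb (40). RefSeq windows were found for 8 of the 10 genes, all but Ly6a and Lmo2. On either strand, the RUNX letters TGTGGT were found in none of the 13 windows (14.0% of all windows) and the MEF2 letters CTANNNNTAG in none (3.2%). The SOX letters ACAAAG were found in 1 (16.5%), the GFI1 letters AAATCA in 2 (12.4%) and the MYB letters AACNG in 7 (74.2%). No source used here says which start each probe set reports.

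With the brightest probe set standing for each gene, 2 of the 9 genes changed at a limma adjusted p under 0.05: Lmo2 rose and Mef2c fell. That is 22.2% of these genes, against 21.3% of all 11885 genes tested (16.2% higher and 5.17% lower), so the share is near the background. The same 2 genes were those whose groups did not overlap, 1 higher and 1 lower, which over all genes was 26.3% (20.3% higher and 6.06% lower). The other 7 did not pass. The median log2 difference of the 9 genes was 0.28, the value of Kit, against 0.108 over all genes tested. Over the 25 probe sets the median went the other way, at -0.14, against 0.0424 over all probe sets. When probe sets were tested singly, 3 of 25 changed, 1 of Lmo2 upward and 2 of Mef2c downward, which is 12% against a background of 14.2% of 26790 probe sets (9.34% higher and 4.87% lower). In 8 of the 25 probe sets the groups did not overlap (background 21.4%), with 2 higher and 6 lower in menin-deficient mice. Of these, 5 were of Mef2c, all lower, 2 of Runx1, 1 in each direction, and 1 of Lmo2, higher. The count of lower ones is thus mostly 1 gene measured several times in the same mice. Over all probe sets 14.3% were higher and 7.05% lower without overlap, a split that depends on the scaling.

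Scaling bears on these calls, because the bulk of genes sat slightly higher in the menin-deficient group. Setting the median tested gene of every array to the same level (centring) lowered each log2 difference by 0.125. After centring, Mef2c was the only one of the 9 genes called (-0.40, adjusted p = 0.0151), and Lmo2 was not (0.33, adjusted p = 0.0830). That is 1 of 9, against 15.8% of all genes (7.67% higher and 8.17% lower). Of the 25 probe sets 8 were then called, all lower: 5 of Mef2c and 1 each of Myb, Runx1 and Sox4, against 13% of all probe sets (4.69% higher and 8.29% lower).

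**Figure D1:**
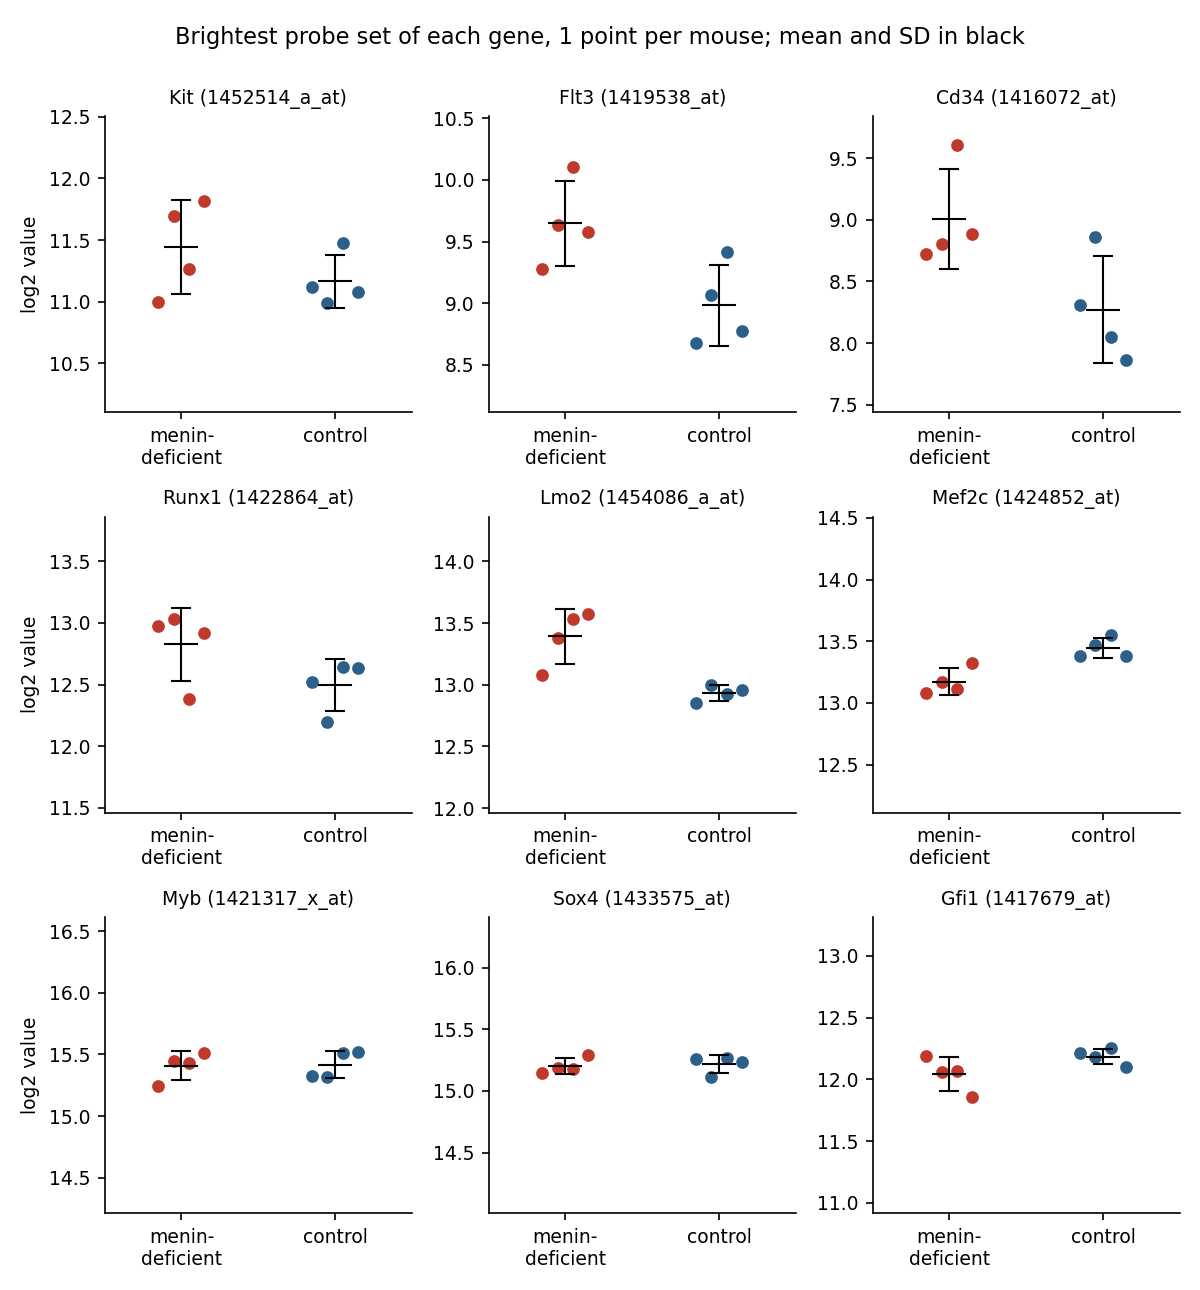
Log2 value of the brightest probe set of each of the 9 genes in every mouse, menin-deficient mice left and control mice right, with the mean and SD in black. The groups do not overlap for Lmo2, higher in menin-deficient mice, and Mef2c, lower, and overlap for the other 7 genes.

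**Figure D2:**
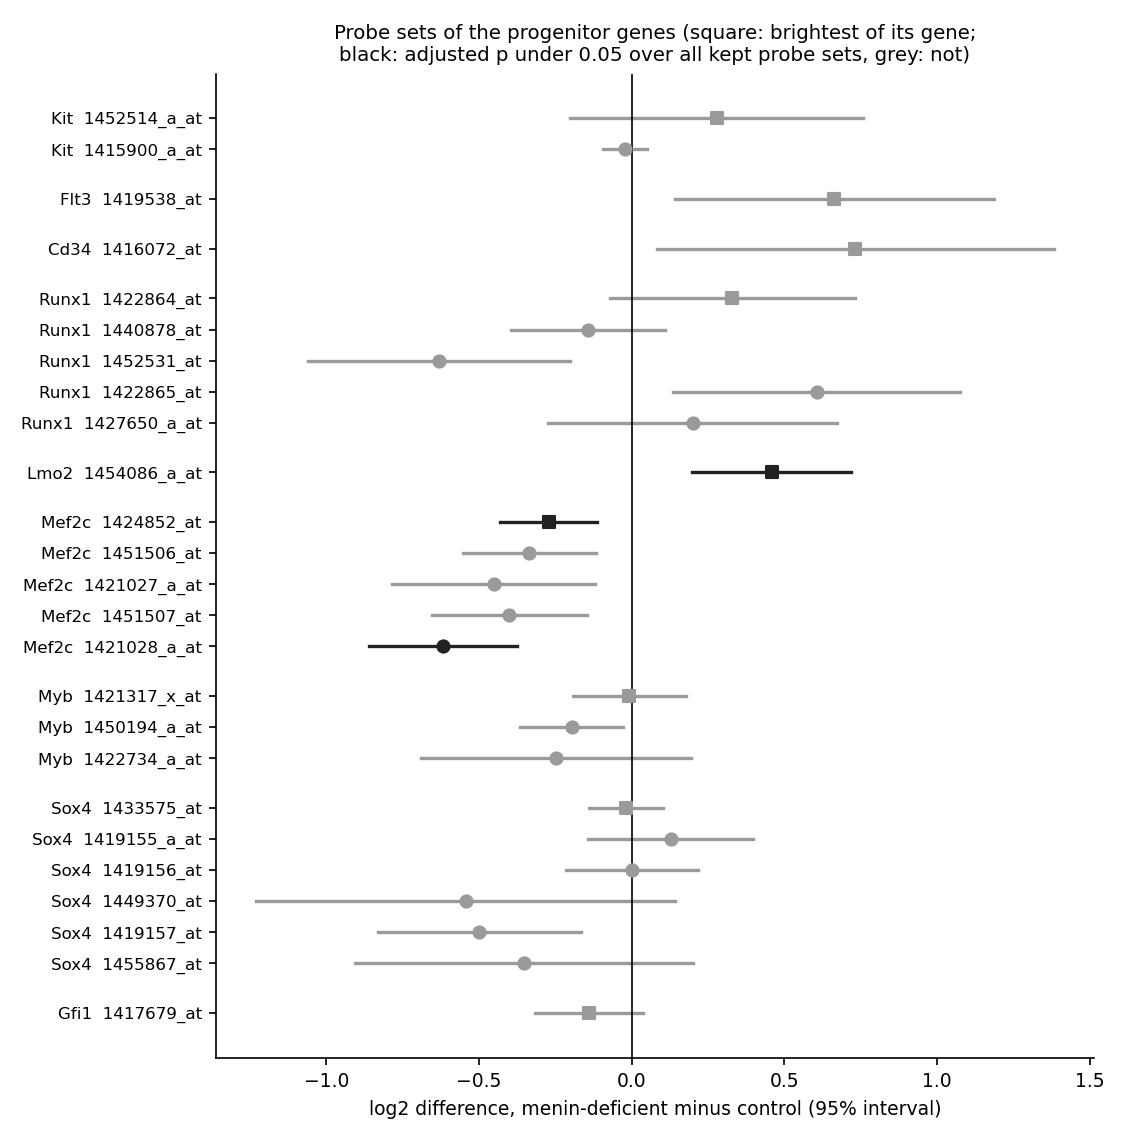
Log2 difference, menin-deficient minus control, of each of the 25 probe sets that passed the filter, with lines for 95% confidence intervals, squares for the brightest probe set of a gene, and black for the 3 that passed the test (grey: not). All 5 Mef2c probe sets lie below 0, and those of Runx1 and Sox4 lie on both sides.

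Among the receptors, Flt3 and Cd34 had higher means in menin-deficient mice without passing the test, and Kit differed least. Flt3, the receptor for FLT3 ligand that marks lymphoid-primed progenitors, had log2 values of 9.28, 9.63, 10.10 and 9.58 in menin-deficient mice, against 8.68, 9.07, 9.41 and 8.78 in control mice. The overlap came from menin-deficient mouse 1, which lay below control mouse 3. The difference was 0.66 (SE 0.22, 95% interval 0.15 to 1.18, 1.58-fold), with a limma adjusted p of 0.0725. It passed the threshold under 4 of 20 other settings. Among them were array weights (limma adjusted p = 0.0182), the replicate number as a block (0.02225) and leaving out control mouse 3 (0.0443).

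Cd34, a sialomucin of progenitors and endothelium, had log2 values of 8.72, 8.81, 9.61 and 8.89 in menin-deficient mice and 8.31, 8.86, 8.05 and 7.87 in control mice. Menin-deficient mouse 3 stood highest, and control mouse 2 lay above 2 menin-deficient mice. The difference was 0.73 (SE 0.27, 95% interval 0.09 to 1.38, 1.66-fold, limma adjusted p = 0.102), and without control mouse 2 it was 0.93 with an adjusted p of 0.0472. Menin-deficient mouse 3 had the highest value of all 8 mice for both Flt3 and Cd34. Without it the difference was 0.51 for Flt3 and 0.53 for Cd34, with adjusted p of 0.128 and 0.175.

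That mouse also stood apart in some lists of markers of other cells, but not in all. Its mean over 16 monocyte, macrophage and granulocyte markers was 10.01 on the log2 scale, against 8.81 to 9.47 in the other menin-deficient mice and 8.79 to 9.23 in control mice. Its mean over NK cell markers was 6.72, against 5.98 to 6.03 in the other menin-deficient mice and 5.38 to 5.76 in control mice. Its mast cell and basophil mean (6.21) and endothelial mean (4.281) were also highest, with 5.974 and 4.214 next. Its T cell mean was 5.175, against 5.172 in menin-deficient mouse 1. Its plasmacytoid dendritic mean, 8.059, lay below the 8.114 of menin-deficient mouse 4. Its erythroid mean, 8.236, lay below the 8.273 of control mouse 2. Its mean over the 4 sort markers, 13.35, was the lowest of the 8, with control mouse 2 next at 13.43. That mean includes Enpep, the marker the sort selects against, so it does not measure how well the sort worked. The part of other cells in the Flt3 and Cd34 values was not tested. In bulk RNA a change in the number of cells of a type and a change in RNA per cell cannot be told apart.

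Kit, the receptor for stem cell factor, had log2 values of 11.00, 11.69, 11.26 and 11.81 in menin-deficient mice and 11.12, 10.99, 11.48 and 11.08 in control mice. Menin-deficient mice 2 and 4 lay above every control mouse, and menin-deficient mouse 1 lay below 3 of the 4. The difference was 0.28 (95% interval -0.20 to 0.75, limma adjusted p = 0.365), an interval that still holds a rise of over 1.5-fold. The second Kit probe set was dim, at 2.70 to 2.76 in menin-deficient mice and 2.75 to 2.78 in control mice. Of Ly6 relatives from the same gene cluster as Ly6a, 4 were tested and none passed in limma, among them Ly6d (-0.11, adjusted p = 0.693), which marks B-biased lymphoid progenitors, and Ly6e (0.26, adjusted p = 0.127). Without control mouse 3, 1 of the 4 passed.

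Runx1, the DNA-binding partner of CBFB, did not pass on its brightest probe set, and its probe sets went apart. That probe set had log2 values of 12.97, 13.03, 12.39 and 12.92 in menin-deficient mice and 12.52, 12.19, 12.64 and 12.63 in control mice. Menin-deficient mice 1, 2 and 4 lay above every control mouse, and menin-deficient mouse 3 lay below 3 of them. The difference was 0.33 (SE 0.17, 95% interval -0.07 to 0.73, limma adjusted p = 0.208), and without menin-deficient mouse 3 it was 0.48 with an adjusted p of 0.0444.

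A dimmer Runx1 probe set (1422865_at) had 7.73, 7.48, 7.34 and 7.92 in menin-deficient mice, all above the 7.29, 7.15, 6.52 and 7.09 of control mice. Another (1452531_at) went the other way, with 7.74, 7.82, 7.96 and 8.08 in menin-deficient mice, all below the 8.47, 9.05, 8.29 and 8.31 of control mice. Their log2 differences were 0.61 (SE 0.20) and -0.63 (SE 0.18), and neither passed on its own (limma adjusted p = 0.0890 and 0.0623). After centring the lower one did (-0.76, adjusted p = 0.0387).

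Within each array, where scaling cancels, the first minus the second was -0.0089, -0.34, -0.61 and -0.15 in menin-deficient mice, against -1.18, -1.90, -1.77 and -1.21 in control mice. The means were -0.28 ± 0.261 in menin-deficient mice and -1.51 ± 0.372 in control mice (SD, n = 4 each), which differ by 1.24. That the groups do not overlap here follows from the opposite, non-overlapping values of both probe sets and is no separate result. This pair was chosen after its values were seen and is given without a test. The remaining probe sets of Runx1 above the lowest value differed by -0.14 and 0.20, with overlapping groups.

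**Figure D3:**
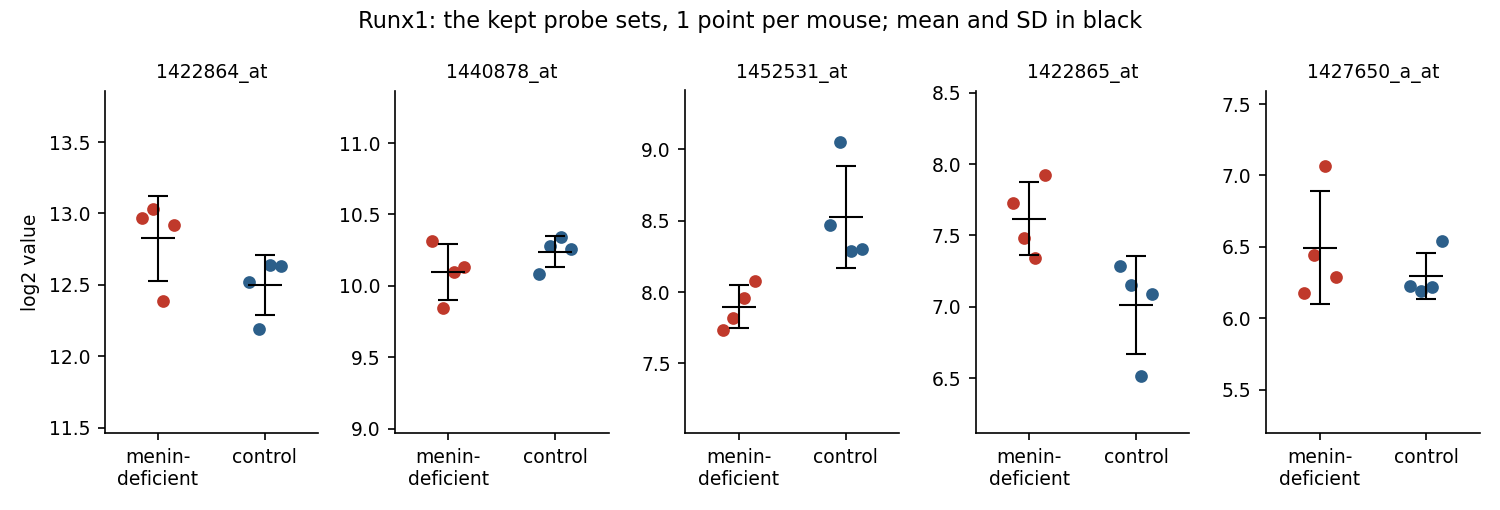
Log2 value of each Runx1 probe set that passed the filter, per mouse, menin-deficient left and control right, with the mean and SD in black. Probe set 1422865_at is higher and 1452531_at lower in every menin-deficient mouse than in every control mouse, while the groups overlap in the other 3.

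Neither Cbfb nor Runx3 passed. Cbfb, the cofactor of RUNX proteins, differed by 0.12 (limma adjusted p = 0.274), with a 95% interval of -0.05 to 0.30, and the related factor Runx3 by -0.07.

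Lmo2 rose. It encodes a LIM-domain adaptor that bridges TAL1 or LYL1 and GATA factors through LDB1, and is a known oncogene in T-cell leukaemia. Its single probe set had log2 values of 13.08, 13.38, 13.53 and 13.57 in menin-deficient mice and 12.85, 13.00, 12.92 and 12.96 in control mice. Every menin-deficient mouse lay above every control mouse, although mouse 1 did so by under 0.1. Lmo2 averaged 13.39 ± 0.223 in menin-deficient mice and 12.93 ± 0.0612 in control mice (SD, n = 4 each), a log2 difference of 0.46 (SE 0.11, 1.37-fold, limma adjusted p = 0.0269). The direction held under all 20 other settings, with 0.33 to 0.62 as the range, and the call under 11 of them. It was lost when menin-deficient mouse 2, 3 or 4 or control mouse 1, 3 or 4 was left out (adjusted p of 0.0562 to 0.0729).

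Lmo2 lies on chromosome 2 within 10 Mb of Rag1, for which the Cre is named. Of 62 tested genes in that window 17 were higher and 9 lower in menin-deficient mice, 41.9% called against 21.2% elsewhere. The part of this neighbourhood in the Lmo2 difference was not tested.

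Ldb1, the LIM-binding protein that holds LMO complexes together, rose with it: 12.07, 12.33, 12.47 and 12.35 in menin-deficient mice, against 11.51, 11.76, 11.74 and 11.68 in control mice. Its difference of 0.63 (1.55-fold, limma adjusted p = 0.00672) passed under all 20 other settings. Lyl1, a bHLH factor of the same complex, was called at 0.38 (adjusted p = 0.0441) under the main settings but not after centring (0.26, adjusted p = 0.147). Tal1, its relative, differed by 0.46 without passing (adjusted p = 0.0664).

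The other LIM-only genes went both ways. Lmo4 had 9.499, 9.56, 9.74 and 9.75 in menin-deficient mice, all below the 10.78, 10.39, 10.37 and 10.90 of control mice, and fell 1.96-fold (-0.97, limma adjusted p = 0.00572). Lmo1 was called higher (1.08, adjusted p = 0.0288), although its groups touched: menin-deficient mouse 2 had 8.59, as did control mouse 2, and its call held under 11 of 20 other settings.

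Mef2c fell. It encodes a MADS-box factor that is needed for normal B-cell development and recruits class IIa histone deacetylases. The brightest probe set had log2 values of 13.08, 13.17, 13.12 and 13.33 in menin-deficient mice and 13.38, 13.47, 13.55 and 13.38 in control mice. All 4 menin-deficient values lay below the lowest control value, mouse 4 by the narrowest margin. The means were 13.17 ± 0.108 in menin-deficient mice and 13.45 ± 0.0800 in control mice (SD, n = 4 each), and the difference was -0.27 (SE 0.07, 95% interval -0.43 to -0.11, 1.21-fold lower, limma adjusted p = 0.0303).

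The other 4 Mef2c probe sets were lower as well, and in each the groups did not overlap. The dimmest of the 5 (1421028_a_at) moved most, with 9.64, 9.63, 9.39 and 9.86 in menin-deficient mice, against 10.14, 10.32, 10.18 and 10.34 in control mice. Its difference was -0.62 (SE 0.10, 1.54-fold lower, limma adjusted p = 0.0123 over all probe sets), and it passed under 18 of 19 other settings, all but female mice alone (adjusted p = 0.134). The 3 between them differed by -0.34, -0.45 and -0.40, with adjusted p of 0.0550, 0.0779 and 0.0502. Probe sets of 1 gene measured in the same mice are not separate replicates.

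Averaged over its 5 probe sets, Mef2c differed by -0.42 (limma adjusted p = 0.0108). All 5 were lower under each of the 19 other settings run on single probe sets. The call on the brightest one was less firm: of 20 other settings 11 lost it, 7 of them by leaving out 1 mouse, every mouse but menin-deficient mouse 4, with differences of -0.29 to -0.24 and adjusted p of 0.0506 to 0.0767.

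**Figure D4:**
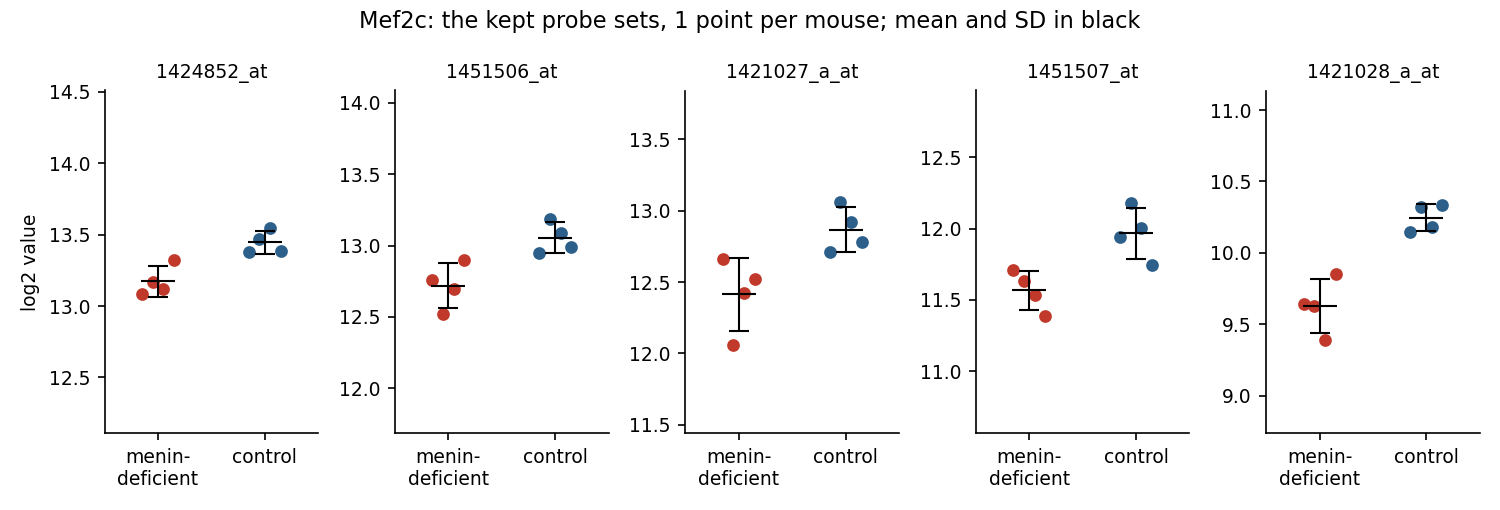
Log2 value of each of the 5 Mef2c probe sets per mouse, menin-deficient left and control right, with the mean and SD in black. In each probe set all 4 menin-deficient values lie below all 4 control values, with the largest difference, -0.62, in 1421028_a_at.

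Among the deacetylases that bind MEF2 factors, Hdac9 was lower, at 9.94, 9.24, 9.73 and 10.07 in menin-deficient mice against 11.22, 11.02, 10.77 and 11.27 in control mice. It fell 2.50-fold (-1.32, limma adjusted p = 0.00649) and passed under all 20 other settings. Hdac7, a class IIa deacetylase of B-cell progenitors, was 1.74-fold higher (0.80, adjusted p = 0.0225), and Ep300, a histone acetyltransferase, was 1.52-fold lower (-0.60, adjusted p = 0.0207). The relatives Mef2a and Mef2d differed by -0.02 and 0.10 and did not pass.

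Myb, Sox4 and Gfi1 did not pass on their brightest probe sets. Myb, the proto-oncogene that early B cells need for IL-7 signalling and survival, had 15.25, 15.45, 15.43 and 15.52 in menin-deficient mice and 15.33, 15.32, 15.51 and 15.52 in control mice. Its groups lay on top of each other, with a difference of -0.0088 (95% interval -0.19 to 0.18, limma adjusted p = 0.966). These values lie near the top of the table's range, which ends at 17.4. A second Myb probe set had 14.04, 14.10, 14.24 and 14.31 in menin-deficient mice and 14.35, 14.27, 14.42 and 14.44 in control mice. It differed by -0.20 (adjusted p = 0.117) and passed after centring (-0.32, adjusted p = 0.0319), and the third differed by -0.25 (adjusted p = 0.424).

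Sox4, an HMG-box factor required at the pro-B stage, had 15.14, 15.18, 15.18 and 15.29 in menin-deficient mice and 15.26, 15.12, 15.27 and 15.23 in control mice. The difference was -0.019 (95% interval -0.14 to 0.10, limma adjusted p = 0.8291). The next brightest probe sets differed by 0.13 and 0.0018. The 3 dimmer ones had lower means in menin-deficient mice, by -0.54, -0.50 and -0.35. The middle one of these, 1419157_at, had 7.08, 7.43, 7.37 and 7.30 in menin-deficient mice and 7.87, 7.93, 7.41 and 7.96 in control mice, and only control mouse 3 lay among the menin-deficient ones. It missed the threshold (adjusted p = 0.0585) and passed under 6 of 19 other settings.

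Gfi1, a zinc finger repressor that restrains stem cell cycling and recruits the demethylase KDM1A, had 12.19, 12.06, 12.07 and 11.86 in menin-deficient mice and 12.21, 12.18, 12.25 and 12.10 in control mice. Menin-deficient mice 2 to 4 lay below every control mouse and mouse 1 lay among them. The difference was -0.14 (95% interval -0.32 to 0.04, limma adjusted p = 0.227). Its relative Gfi1b differed by -0.01 and Kdm1a by 0.16 (adjusted p = 0.133), and neither passed.

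The wider pathways were read from lists of genes that do not include the 10. The background for the counts of these lists is the share of all genes called, 16.2% higher and 5.17% lower (7.67% and 8.17% after centring). Of 24 tested relatives and cofactors of the member transcription factors 4 were higher and 3 lower, with a median log2 difference of 0.083 against 0.108 over all genes (3 and 3 after centring). Beside those given above, Ehmt2, a histone H3 lysine methyltransferase, was called higher (0.25, limma adjusted p = 0.0423) and not after centring (0.13). The count was 4 without menin-deficient mouse 2, menin-deficient mouse 3 or control mouse 1.

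Of 26 tested KIT and FLT3 ligands and signalling genes, 3 were higher and 2 lower, with a median of 0.14 (2 and 2 after centring). Stat5a, a transcription factor that cytokine receptors activate, had 9.21, 9.59, 9.71 and 9.17 in menin-deficient mice, all above the 8.52, 8.58, 8.79 and 8.596 of control mice. It rose 1.74-fold (0.80, limma adjusted p = 0.00964). Sh2b3, the adaptor LNK that restrains KIT and JAK2, rose 1.42-fold (0.51, adjusted p = 0.00916), and Dok2, another inhibitory adaptor, was called at 0.50 (adjusted p = 0.0199) but not after centring (0.38, adjusted p = 0.0593).

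Cblb, a ubiquitin ligase that targets activated receptors, was lower on its brightest probe set (-0.71, 1.64-fold, limma adjusted p = 0.00826), while its other probe sets differed by -0.15 and -0.05. Pik3r1, a regulatory subunit of PI3 kinase, was called lower at -0.22 (adjusted p = 0.0436). Kitl, the KIT ligand, was dim in all mice but menin-deficient mouse 4, at 2.13, 2.25, 2.13 and 3.38 in menin-deficient mice and 2.11 to 2.13 in control mice. Flt3l was paired with no probe set.

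Of 22 other tested progenitor receptors and surface proteins 3 were higher and 1 lower, with a median of 0.12 (1 and 2 after centring). Cd9, a tetraspanin, had 11.03, 11.15, 11.40 and 11.00 in menin-deficient mice, against 9.88, 10.22, 9.998 and 9.99 in control mice, and rose 2.18-fold (1.12, limma adjusted p = 0.00203). Cd93 and Cd48 were called higher at 0.36 and 0.44 (adjusted p = 0.0152 and 0.0445), neither after centring. Cxcr4, the receptor that holds B-cell progenitors in bone marrow, fell 1.34-fold (-0.42, adjusted p = 0.0387). The count was 2 without any single menin-deficient mouse or without control mouse 1.

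Of 28 other progenitor transcription factors tested, 6 were higher and 4 lower, with a median of 0.21 (2 and 5 after centring). The higher ones were Zfp521 (1.70), Nfe2 (0.68), Ikzf2 (0.60), Lyl1, Erg (0.36) and Hhex (0.25), of which Zfp521 and Nfe2 were still called after centring. The lower ones were Hoxa9 (-1.66), its cofactor Meis1 (-1.19), Hoxb4 (-0.39) and the ETS factor Fli1 (-0.30). Hoxa9 and Meis1, which menin and MLL are known to regulate, kept the call under 19 and 18 of 20 other settings. Hoxb4 and Fli1 kept theirs under 8 and 10. The count was 5 without menin-deficient mouse 2, 3 or 4 and 4 without control mouse 1.

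**Figure D5:**
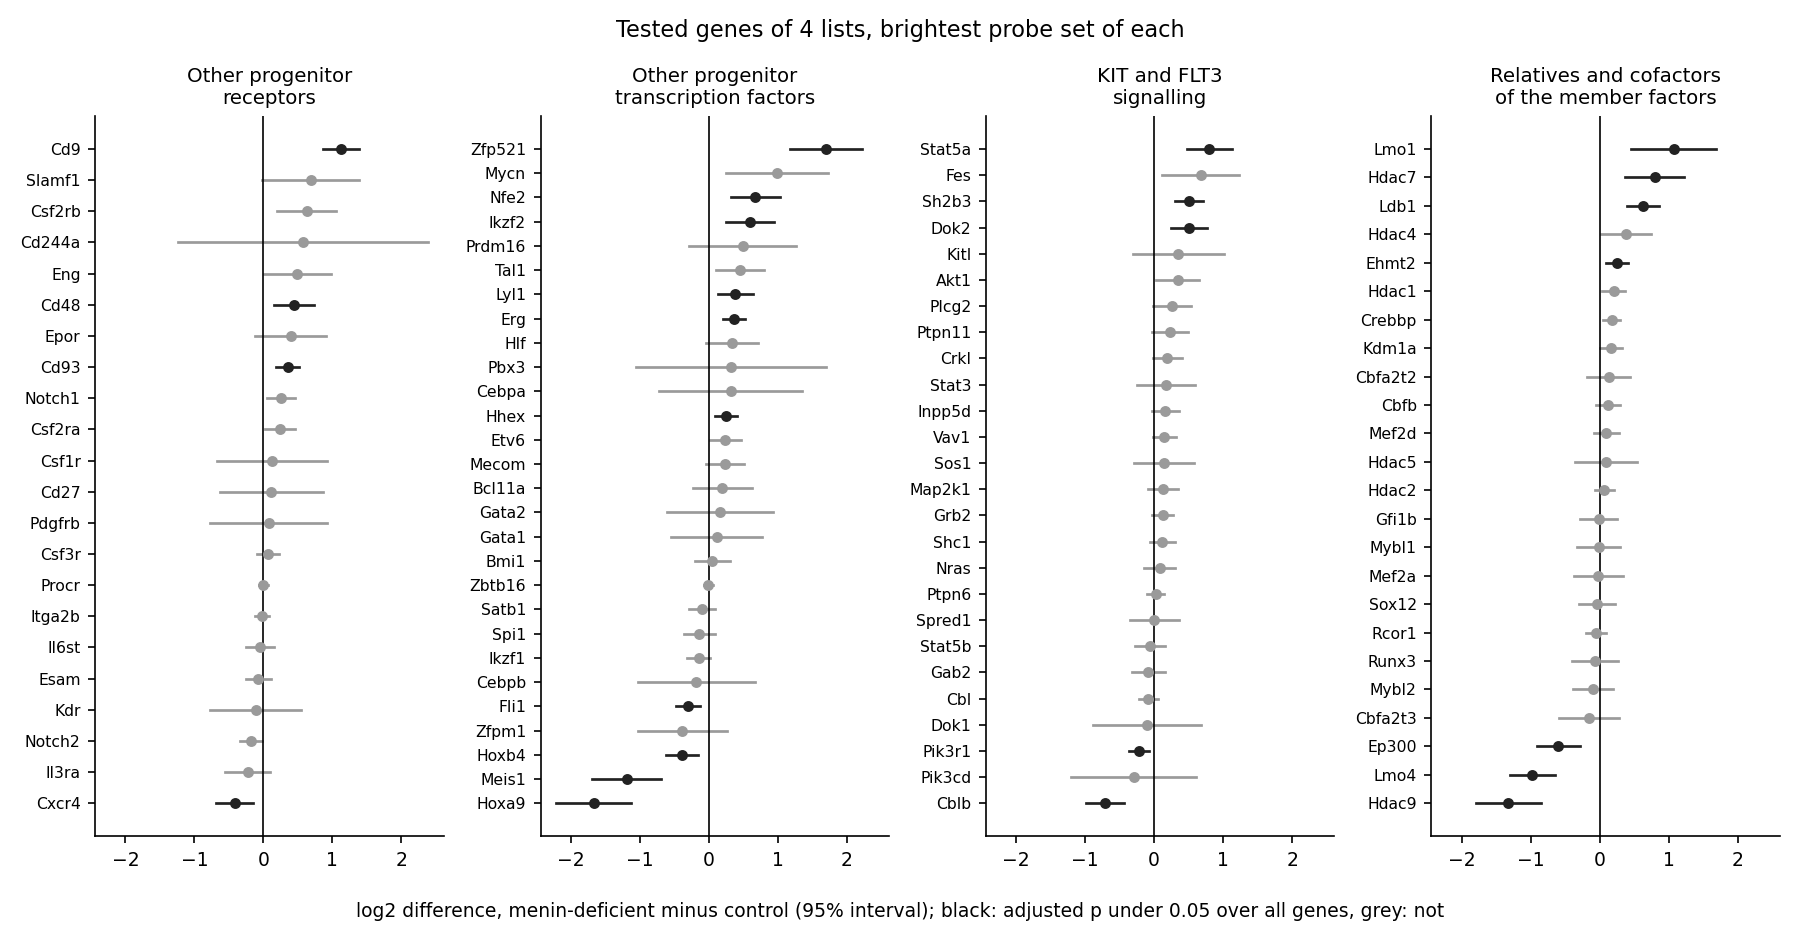
Log2 difference, menin-deficient minus control, with 95% confidence intervals, of each tested gene of 4 lists: other progenitor receptors, other progenitor transcription factors, KIT and FLT3 signalling, and relatives and cofactors of the member factors. Black marks genes that passed the test and grey those that did not; in each list called genes lie on both sides of 0.

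Markers of other cell types were read beside these results, and the share of all genes called higher, 16.2%, is the background for their counts. Of 8 tested T cell markers 6 were higher (Cd28, Thy1, Lat and Cd5 with the lowest p) and none lower, with a summed linear value of 2657 to 3594 in menin-deficient mice and 686 to 1096 in control mice, while Cd3d, Cd3e, Cd4 and Cd8b1 lay near the lowest value in all 8. Of 10 NK cell markers 4 were higher, Ncr1, Cd7, Nkg7 and Gzmb (3278 to 6963 in menin-deficient mice, 1960 to 3023 in control mice, Il2rb near the lowest value). Of 16 monocyte, macrophage and granulocyte markers 2 were higher, Ccr2 and Lyz2 (78106 to 125875 in menin-deficient mice, 67439 to 92614 in control mice, Csf3r near the lowest value).

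Of 6 mast cell and basophil markers 2 were higher, Cpa3 and Fcer1a (3404 to 6209 in menin-deficient mice, 2014 to 4119 in control mice), with Mcpt4, Tpsb2, Tpsab1 and Cma1 near the lowest value. Of 12 plasmacytoid dendritic cell markers 2 were higher, Ccr9 and the interferon-inducible Irf7 (27130 to 32579 in menin-deficient mice, 21485 to 25503 in control mice, Tlr9 near the lowest value). Of 9 erythroid markers Car1 was higher (46513 to 52253 in menin-deficient mice, 44873 to 46078 in control mice, Hba-a1 near the lowest value). The mean log2 value of the erythroid list, unlike this sum, overlapped, at 7.59 to 8.24 in menin-deficient mice and 7.61 to 8.27 in control mice. Of 7 endothelial markers Egfl7 was higher (6829 to 8059 in menin-deficient mice, 4223 to 5464 in control mice, with Cdh5, Tek and 4 others near the lowest value). Of 31 interferon-stimulated genes 18 were higher, with Iigp1, Isg20, Gbp6, Oas1a, Irf7 and Ifih1 at the lowest p, and none lower (12 after centring, and 11 without menin-deficient mouse 2 or 3). The mast cell and basophil count was 0 or 1 without any mouse but menin-deficient mouse 2 or control mouse 3. The NK cell count was 2 without menin-deficient mouse 2 or 4 or control mouse 1, 3 or 4. The erythroid count was 0 and the monocyte count 1 without menin-deficient mouse 2, 3 or 4, with control mouse 1 or 4 left out doing the same to both, control mouse 3 to the erythroid count and control mouse 2 to the monocyte count. The endothelial count was 2 without menin-deficient mouse 1, and the pro-B count 1 to 3 without any mouse but control mouse 2. With no filter, which can add dim markers, 4 of 12 T cell and 2 of 11 NK cell markers were called. The mast cell and basophil count was then 0 of 10, as was the erythroid count. Monocyte, plasmacytoid dendritic and endothelial counts were 1 of 16, 2 of 12 and 1 of 11. Fewer genes were called over all genes too. After centring the T cell count was 5, the monocyte count 1 and the erythroid count 0. The NK cell, mast cell, plasmacytoid and endothelial counts were unchanged. Kit, Flt3, Cd34 and Lmo2 are known to be used in several of these cell types, and the part of such cells in the values of these genes was not tested.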

How the data were processed

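Per the labels' protocols, total RNA was amplified in a single round, biotin-labelled and put on Affymetrix mouse expression arrays. The table that was deposited runs from 2.08 to 17.4, which fits log2 values. MAS5 and GCRMA are named in the submitters' processing notes, without saying which gave the values. On each array 38.2% to 38.8% of probe sets had the lowest value, so folds near it are approximate. Array medians were 3.29 to 3.50, and correlations were 0.991 to 0.996 within groups and 0.985 to 0.991 between them.

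A probe set was kept if it exceeded the 40th percentile of its array on 4 or more of the 8 arrays (26790). The brightest of those with 1 symbol (34945 before the filter, with 932 of several symbols and 9160 of none) stood for its gene (11885 genes). "Near the lowest value" means within 0.5 of it on all 8 arrays. The comparison used limma 3.58.1 (lmFit, then eBayes) and no covariate, and p was adjusted by Benjamini-Hochberg over all genes, or over all kept probe sets, at a threshold of 0.05. Tables were read with data.table version 1.17.8 in R 4.3.3. The fit was tested on simulated data. Intervals are at 95%. Plots used matplotlib 3.10.9 in Python 3.11.15.

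The genes, 6 gene lists and 9 marker lists were chosen with earlier results of these data known. All probe sets of the 10 genes are described or counted. Of each list the called genes with the lowest p are named, up to 6 in each direction for gene lists and up to 4 for marker lists, with Blnk beside them. Alternatives were quantile normalization, centring, no filter and a stricter filter, the mean of probe sets, other eBayes settings, the replicate number as a block, array weights, sex, female mice alone, and leaving out each array. Promoter windows are from RefSeq.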

Additional observations from a re-analysis of the deposited data

Results flagged for a closer look

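Among 62 groups of 4 values (each probe set of the 10 genes and of Men1, in each group), 4 held a mouse whose gap to the nearest other, divided by the range of its group, passed Dixon's 95% critical value. Chance flags about 1 in 20 such groups where values are not tied. Groups of equal values, as in the probe sets at the lowest value on every array, could not be flagged. In menin-deficient mice, Sox4 probe set 1455867_at read 8.031 in mouse 3 against 7.178 to 7.249 in the others. In control mice, Sox4 probe set 1419157_at read 7.41 in mouse 3 against 7.874 to 7.955, and Runx1 probe set 1427650_a_at read 6.539 in mouse 4 against 6.191 to 6.227. The dimmest Men1 probe set, 1443826_x_at, read 5.926 in control mouse 3 against 5.798 in the other 3. Those 3 values were identical, so the chance rate does not hold for this flag.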

How the results depend on the processing

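The directions of Lmo2, Mef2c, Flt3, Cd34, Kit, Runx1, Gfi1 and Men1 were the same under all 20 alternatives. The call of Men1 was lost in female mice alone (-1.27, adjusted p = 0.0699). The 2536 changed genes became 1673 with no filter, 639 in female mice alone and 1413 to 2269 when a mouse was left out, with 1413 without menin-deficient mouse 2 and 1622 without control mouse 1. The 2 changed genes of the 10 became 1 after centring, with sex as a covariate and in female mice alone, 3 with a 60th percentile filter and with array weights, 0 with no filter, and 0 to 2 when a mouse was left out. The 3 changed probe sets became 5 with quantile normalization, 8 after centring, 1 with no filter, 7 with a 60th percentile filter, 6 with array weights and 1 to 3 when a mouse was left out. Their count was not run on means of probe sets. With the replicate number as a block, 1328 genes changed, and of the 10 only Flt3 (0.66, limma adjusted p = 0.02225). Deviations of same-numbered mice had correlations of -0.107, -0.313, -0.171 and 0.0459, and those of different-numbered mice ran from -0.194 to 0.341. Correlations of this size cannot decide whether the number pairs mice, and the labels do not say. With the block, Lmo2 and Mef2c had limma adjusted p of 0.0515 and 0.0952. Signs reversed only for Myb and Sox4 differences near 0, none called. Myb was 0.030 with array weights, 0.085 in female mice and -0.044 to 0.046 when a mouse was left out, and as a single probe set it was 0.025 with array weights, 0.085 in female mice and up to 0.046. Sox4, as a gene and as the same single probe set, was 0.034 in female mice, and its probe set 1419156_at was -0.059 with quantile normalization, -0.12 after centring, -0.037 with array weights and -0.043 to 0.056 when a mouse was left out. The causes were not tested. With 4 arrays in each group, differences under the intervals given could not be resolved, and values near the lowest one cannot be ordered.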

Other observations

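By the root mean square difference of profiles over the 8 arrays, each centred on its own mean, the tested genes whose pattern was most like that of Mef2c were Zfp281 (0.045) and Fam126a (0.0567). Zfp281 averaged 12.24 ± 0.142 in menin-deficient mice and 12.53 ± 0.101 in control mice (log2, SD, n = 4 each). The genes most like Lmo2 were Spns1, a lysosomal lipid transporter (0.0556), and Fech, the last enzyme of haem synthesis (0.0572). Fech averaged 10.27 ± 0.186 in menin-deficient mice and 9.85 ± 0.107 in control mice, and Spns1 differed by 0.39 on the log2 scale.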
